A study of Homo sapiens with 10 samples.

Results

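The genes described here encode 38 enzymes and cofactors of glycerolipid and phospholipid synthesis, from the first acylation of glycerol 3-phosphate to triglycerides, phosphatidylcholine, phosphatidylethanolamine, phosphatidylserine, phosphatidylinositol and cardiolipin, together with the lipases that break triglycerides down. They were chosen by their known role, though with earlier results of these data known. All 38 were found by symbol in the gene name column of the deposited table, among 62656 genes. Levels are in RPKM, reads scaled to gene length and by a factor for each library, and can be compared between genes. A mean of at least 0.5 RPKM was reached by 34 of the 38 members, and these were tested together with 20402 genes in all. The remaining 4 members (GPAT2, MOGAT1, MOGAT2 and PCYT1B) were under this level and are given by their reads.

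RNA came from PC3, a human prostate cancer cell line established from a bone metastasis, which was labelled epithelial and grown in RPMI-1640 with serum. The cells were given either DMSO, the vehicle, or GW3965 at 1 µM for 24 h, with 5 libraries per condition. GW3965 is a synthetic agonist of the liver X receptors (LXRs), nuclear receptors that sense oxysterols and induce genes of cholesterol export and fatty acid synthesis, and the study asked how LXR activation bears on the epithelial-mesenchymal transition of prostate tumour cells. The labels do not say whether the 5 libraries of a condition came from separate cultures, so p-values measure only the spread between these libraries.

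Phosphatidic acid is the branch point of these pathways. Removal of its phosphate by lipins yields diacylglycerol, which is acylated to triglyceride or receives a choline or ethanolamine headgroup in the Kennedy pathway, in which a kinase, an enzyme that uses CTP and a transferase act in turn. Activation of phosphatidic acid to CDP-diacylglycerol leads instead to phosphatidylinositol and, in mitochondria, to cardiolipin. Tumour cells that grow need these steps for new membranes, and the fatty acids made under SREBP1c, the product of an LXR target gene, enter the lipids of the cell through them.

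The recovered reads per library, found from the whole-number steps of the RPKM values, numbered between 30612229 and 39387347 in DMSO and between 30431689 and 41638858 in GW3965. On the first principal component of these reads, computed on 14373 genes and holding 41.4% of their variance, 3 libraries of both conditions stood apart. DMSO library 1 and GW3965 libraries 1 and 2 scored between -19.7 and -17.7, and the other 7 libraries between -3.90 and 21.8. On the first component of the tested values (20402 genes, 19.6% of the variance), these 3 scored between -31.6 and -25.0. There DMSO library 5 lay near them at -21.1, and the remaining libraries scored between -0.840 and 32.6. ABCA1 and ABCG1, the cholesterol exporters used as a check of the treatment, rose by 2.29 and 2.13 on the log2 scale (limma adjusted p = 0.000630 and 0.000124). SREBF1, which encodes the lipogenic regulator SREBP1, rose from 12.5 ± 1.46 to 20.9 ± 1.34 RPKM (SD, n = 5 per group; log2 fold change 0.74, limma adjusted p = 0.00362). Of 5 epithelial markers, 4 reached 0.5 RPKM, led by KRT19, and CDH1 stood at 0.285 RPKM on average. Among the prostate luminal markers KLK3 had no read in any library. Adipocytes and hepatocytes use the same enzymes, so their markers were read too: of the 5 adipocyte markers only FABP4 reached 0.5 RPKM, ADIPOQ had at most 8 reads in a library, and none of 3 hepatocyte markers reached that level. The summed level of the adipocyte list was between 9.54 and 11.8 RPKM in DMSO and between 13.2 and 18.8 RPKM in GW3965. Most of it was FABP4, a fatty acid binding protein, at 10.5 ± 0.956 RPKM in DMSO and 15.1 ± 2.39 in GW3965. The sum was not tested. Of all tested genes, 1.35% had groups that did not overlap with GW3965 the higher. Of the other lists, none of 4 leukocyte, 1 of 3 endothelial and 1 of 4 fibroblast markers reached 0.5 RPKM.

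None of the 34 tested members passed the threshold in either direction. In limma's test over all genes, with Benjamini-Hochberg adjustment, 0.147% of the tested genes were called higher and 0.0098% lower at an adjusted p under 0.05, and the lowest limma adjusted p of a member was 0.0773, that of LPIN1. By unadjusted p under 0.05 there were 2 members, LPIN1 and PCYT2, or 5.88% of those tested, beside 6.99% of all tested genes. The same 2 genes were the members whose groups did not overlap, GW3965 being the higher, a pattern that 1.35% of all tested genes had in this direction. No member had all GW3965 libraries below all DMSO libraries, which 0.49% of the tested genes had. On the log2 scale of RPKM + 0.1, 18 members had a positive and 16 a negative fold change, a split that moved both ways: 14 were positive with quantile normalization, 23 with library weights, and between 12 (without DMSO 1) and 22 (without DMSO 4) when 1 library was left out. The median fold change was 0.0024 over the members and 0.0034 over all tested genes, and the median size of the change was 0.059 against 0.089. A size under 0.1 was found for 25 of the 34 members and for 11104 of the 20402 tested genes. These sizes were not compared at like levels of RPKM. A mean of at least 1 RPKM was reached by 30 of the 34 members and by 16068 of the 20402 tested genes. The 95% interval of the difference lay within 0.5 of 0 for 32 members, LPIN1 and LIPE being the exceptions. A p that misses the threshold does not show that a level stayed the same, and these intervals give the size of change the libraries leave possible.

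**Figure D1:**
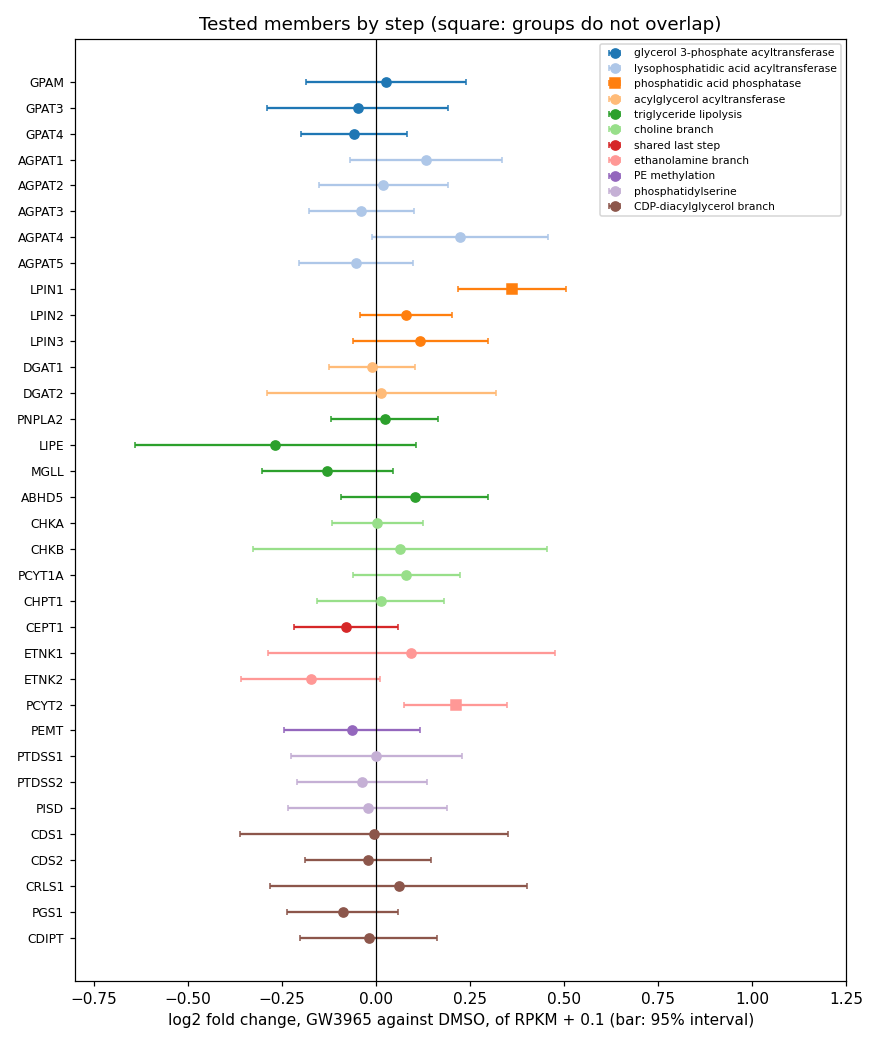
Log2 fold change of RPKM + 0.1, GW3965 against DMSO, for the 34 tested members in the order of the pathway, with 95% intervals from limma and 5 libraries per condition. The intervals of LPIN1 (0.22 to 0.50) and PCYT2 (0.08 to 0.35), drawn as squares because their groups did not overlap, lay above 0, and those of the other members crossed it.

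LPIN1 and PCYT2 are introduced by their promoters, because they were the only members whose groups did not overlap. LPIN1 encodes lipin 1, a phosphatidic acid phosphatase that makes diacylglycerol, and lies on chromosome 2 at chr2:11677595-11827409 on the forward strand (GENCODE 29, GRCh38). PCYT2 encodes the CTP-dependent transferase of the ethanolamine branch, which makes CDP-ethanolamine, and lies at chr17:81900965-81911464 on the reverse strand. RefSeq (GRCh38.p14) gives LPIN1 3 starts, and the sequences below run, 5′ to 3′ on the strand of the gene, from 250 bases before each start to 50 bases after it. For PCYT2 the outer of its 2 overlapping windows is shown. Capitals mark matches, on either strand, to the GC box GGGCGG and the CCAAT box, whose reverse complements are CCGCCC and ATTGG.
LPIN1, chr2:11677294-11677593: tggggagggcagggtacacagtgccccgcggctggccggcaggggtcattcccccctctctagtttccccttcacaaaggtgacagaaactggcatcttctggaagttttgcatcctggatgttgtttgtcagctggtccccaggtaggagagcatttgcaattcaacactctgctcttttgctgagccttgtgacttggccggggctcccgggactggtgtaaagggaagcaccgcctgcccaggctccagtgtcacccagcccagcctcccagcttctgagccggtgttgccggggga
LPIN1, chr2:11724065-11724364: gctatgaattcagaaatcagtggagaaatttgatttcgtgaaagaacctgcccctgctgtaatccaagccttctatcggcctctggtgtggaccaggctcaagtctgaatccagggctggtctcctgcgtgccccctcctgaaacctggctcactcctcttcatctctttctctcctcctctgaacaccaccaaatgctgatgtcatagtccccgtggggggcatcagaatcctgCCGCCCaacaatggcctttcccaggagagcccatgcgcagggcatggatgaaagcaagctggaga
LPIN1, chr2:11746382-11746681: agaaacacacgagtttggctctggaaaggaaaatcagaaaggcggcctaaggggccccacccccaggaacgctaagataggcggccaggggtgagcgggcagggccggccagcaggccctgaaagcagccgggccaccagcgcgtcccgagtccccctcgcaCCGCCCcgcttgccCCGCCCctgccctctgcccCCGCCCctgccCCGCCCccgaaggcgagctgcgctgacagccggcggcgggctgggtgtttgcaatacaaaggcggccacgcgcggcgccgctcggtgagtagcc
PCYT2, chr17:81911350-81911649: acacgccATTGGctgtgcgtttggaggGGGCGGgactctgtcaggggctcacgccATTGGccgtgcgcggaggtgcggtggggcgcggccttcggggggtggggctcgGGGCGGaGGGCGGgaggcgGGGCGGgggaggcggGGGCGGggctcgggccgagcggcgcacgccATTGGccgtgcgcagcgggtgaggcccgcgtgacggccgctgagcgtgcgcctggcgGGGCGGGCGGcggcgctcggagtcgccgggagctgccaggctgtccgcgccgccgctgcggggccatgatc

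The 3 LPIN1 windows differed in these letters. The first held no match, the second held 1 GC box, and the third held 4 GC boxes, from position -88 to position -39 relative to the start. The PCYT2 window held 7 GC boxes, overlapping ones included, and 3 CCAAT boxes. Promoters were in the table for 29 of the 38 members, 50 windows in all (none for LPIN3, DGAT2, AGPAT5, CHKA, MGLL, MOGAT2, GPAT4, DGAT1 and PTDSS1). A GC box stood in 34 of these 50 windows (68%) and in 45.0% of 35116 promoters of all genes. A CCAAT box stood in 17 (34%) and in 34.6%. Windows of a gene can overlap, as those of GPAT3, ABHD5 and PCYT2 do, so the same box can be counted more than once. By gene, 24 of the 29 members had a GC box and 13 a CCAAT box, without a share by gene over all genes to set beside them. The sterol regulatory element in the form TCACNCCAC stood in 1 member window, that of PNPLA2, and in 1.13% of all promoters. The LXR element, AGGTCA repeated after 4 bases of any kind, stood in no member window and in 0.0199% of all promoters, and the E box CACGTG stood in 3 windows (6%; 7.26% of all), those of LPIN2, PEMT and PTDSS2. These matches describe letters within 300 bases only.

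LPIN1 stood at 9.53, 9.39, 8.93, 9.56 and 8.45 RPKM in DMSO libraries 1 to 5 and at 11.8, 11.6, 11.02, 11.3 and 13.4 RPKM in GW3965 libraries 1 to 5. The lowest GW3965 library was above the highest DMSO library, and library 5 was the highest of GW3965 and the lowest of DMSO. The mean went from 9.17 ± 0.476 to 11.8 ± 0.940 RPKM (SD, n = 5 per group), 1.28-fold higher on the scale of RPKM + 0.1, with a log2 fold change of 0.36 (SE 0.065, 95% interval 0.22 to 0.50). The unadjusted limma p was 0.000176 and the limma adjusted p over all tested genes 0.0773, so that LPIN1 ranked 44 by p among them and did not pass the threshold. Each value rested on 3206 to 5477 reads. In 22 alternative fits the log2 fold change lay between 0.314 and 0.385 and the adjusted p between 0.0294 and 0.24; it was under 0.05 in 3 of them. These were the voom fit to recovered reads (0.0294), the first principal component of the values as a covariate (0.0448) and that of the reads as a covariate (0.0349). Without GW3965 library 5 the log2 fold change was 0.31 (limma adjusted p = 0.147). The 4 genes annotated within LPIN1, AC106875.1 and MIR548S on its strand and AC012456.1 and AC012456.2 on the other, had at most 6 reads in any library. In RNA of whole cultures, more cells with the transcript and more transcript per cell cannot be told apart.

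**Figure D2:**
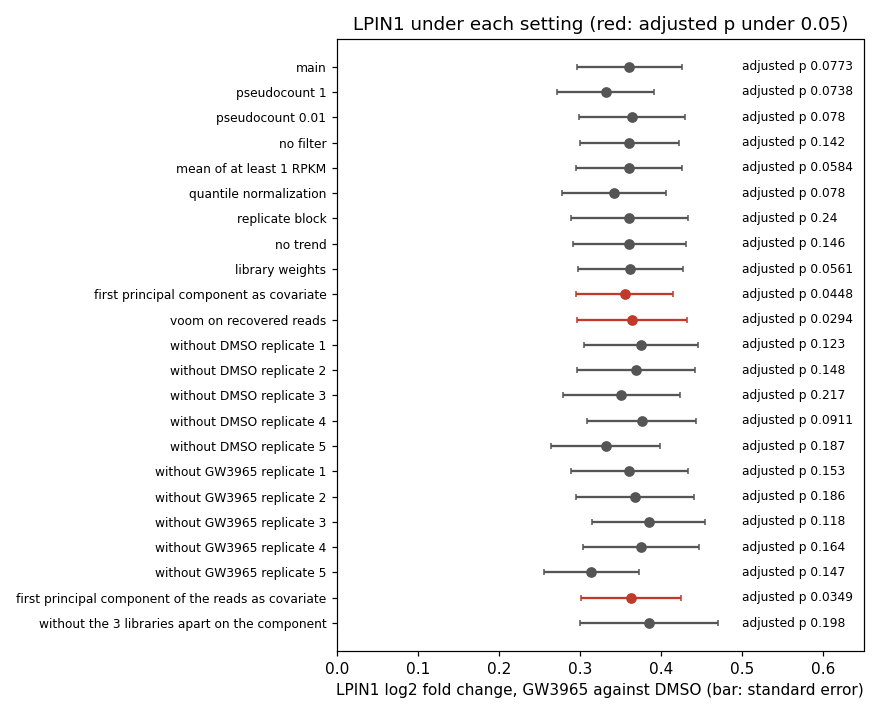
LPIN1 log2 fold change, GW3965 against DMSO, in the main fit and in 22 alternatives, with standard errors and the limma adjusted p over all tested genes printed at the right. The fold change lay between 0.314 and 0.385, and the 3 red points are the fits with an adjusted p under 0.05.

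The other lipins had smaller fold changes. LPIN2, the most abundant lipin by RPKM, stood at 16.2, 16.2, 16.1, 16.6 and 14.2 RPKM in DMSO libraries 1 to 5 and at 17.4, 16.9, 15.8, 16.6 and 17.0 RPKM in GW3965 libraries 1 to 5. In GW3965, 4 libraries lay above all DMSO libraries, with a log2 fold change of 0.08 (95% interval -0.04 to 0.20, limma adjusted p = 0.858). LPIN3 went from 6.16 ± 0.503 to 6.70 ± 0.656 RPKM, with 2 GW3965 libraries above all DMSO libraries and a log2 fold change of 0.12 (limma adjusted p = 0.852). All 3 lipins thus had positive fold changes, none past the threshold, and kept that sign in all 22 alternatives. The summed level of the 3 was between 28.2 and 32.4 RPKM in DMSO and between 33.4 and 36.6 in GW3965, 31.2 ± 1.67 RPKM in DMSO and 35.3 ± 1.41 in GW3965 on average. LPIN1 made up 28.2% to 29.98% of that sum in DMSO and 32.2% to 36.9% in GW3965, while LPIN2 made up 50.03% to 52.1% and 46.7% to 48.8%. These shares, given without a test, did not overlap between the conditions. The sum and the shares contain LPIN1, already named because its groups did not overlap, so they are no separate result. The share of LPIN2 fell although its own mean went from 15.9 to 16.7 RPKM.

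PCYT2 stood at 4.29, 4.65, 4.75, 4.78 and 4.13 RPKM in DMSO libraries 1 to 5 and at 5.25, 5.11, 5.19, 4.99 and 5.68 RPKM in GW3965 libraries 1 to 5. The lowest GW3965 library (4.99) was above the highest DMSO library (4.78), a narrow gap beside the range within either group, and library 5 was again the highest of GW3965 and the lowest of DMSO. The mean went from 4.52 ± 0.291 to 5.25 ± 0.260 RPKM, with a log2 fold change of 0.21 (SE 0.062, 95% interval 0.08 to 0.35). The unadjusted limma p was 0.00578 and the limma adjusted p 0.371, and the latter lay between 0.121 and 0.671 over the 22 alternatives. PCYT2 shares its locus with ANAPC11 and NPB on the opposite strand. ANAPC11 had a log2 fold change of -0.05 (limma adjusted p = 0.959) and NPB had no read. The library kit kept the strand of the RNA, but whether the counting used it is not given in the sources used here.

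**Figure D3:**
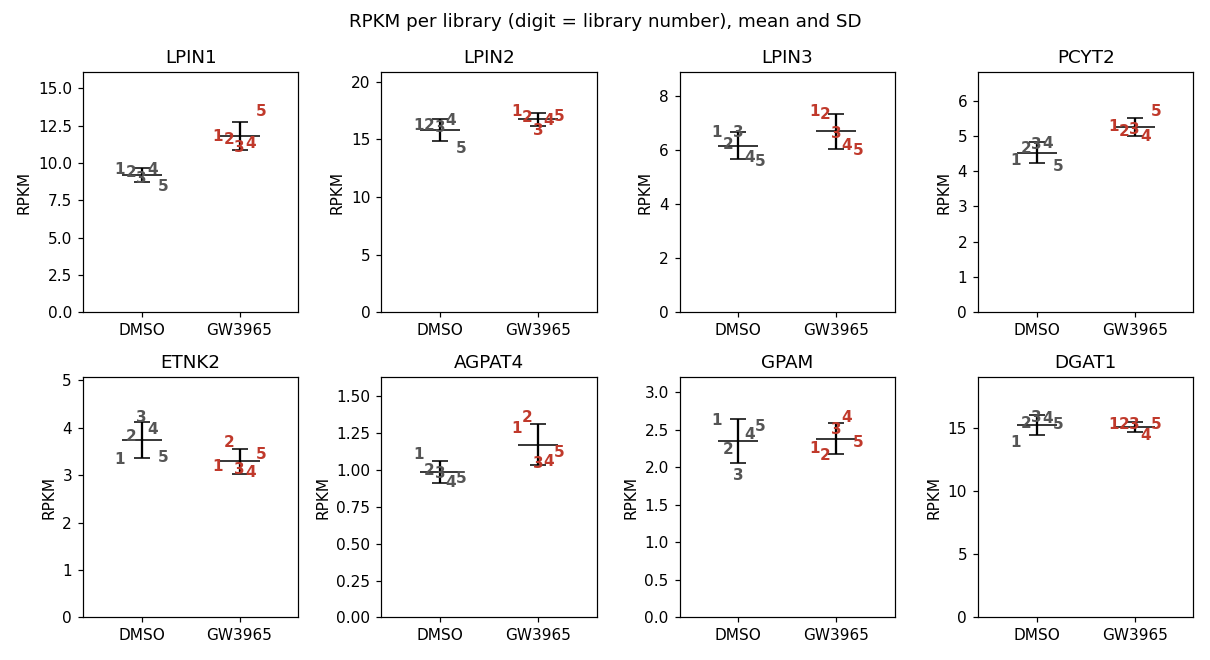
RPKM in each of the 10 libraries for LPIN1, LPIN2, LPIN3, PCYT2, ETNK2, AGPAT4, GPAM and DGAT1, each digit being a library number placed at its value, with group means and SD (n = 5). The groups are apart in the LPIN1 and PCYT2 panels and overlap in the other 6.

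Ethanolamine kinase, the step before PCYT2, is encoded by ETNK1 and ETNK2. ETNK1 stood at 12.7, 8.61, 9.42, 7.28 and 12.1 RPKM in DMSO libraries 1 to 5 and at 13.1, 13.0, 9.47, 9.12 and 8.62 RPKM in GW3965 libraries 1 to 5. Its high and low libraries did not follow the treatment: DMSO 1 and 5 and GW3965 1 and 2 lay between 12.1 and 13.1 RPKM, and the other 6 between 7.28 and 9.47, so that its log2 fold change of 0.09 came with a wide interval (-0.29 to 0.48). ETNK2 went from 3.74 ± 0.386 to 3.30 ± 0.265 RPKM, with 3 GW3965 libraries below all DMSO libraries (log2 fold change -0.17, 95% interval -0.36 to 0.01, limma adjusted p = 0.734). ETNK1 held 72.1% of the summed level of the 2 kinases in DMSO and 76.0% in GW3965 on average, with overlapping ranges. PEMT, which methylates phosphatidylethanolamine to phosphatidylcholine, stood at 6.18, 6.72, 7.34, 7.01 and 7.61 RPKM in DMSO libraries 1 to 5 and at 5.57, 6.79, 7.22, 7.03 and 6.75 RPKM in GW3965 libraries 1 to 5. Its log2 fold change was -0.06 (limma adjusted p = 0.944), and -0.00198 without GW3965 1, its lowest library. CEPT1, the transferase that can finish both branches, stood at 3.004, 2.85, 2.59, 2.56 and 2.63 RPKM in DMSO libraries 1 to 5 and at 2.57, 2.59, 2.58, 2.49 and 2.60 RPKM in GW3965 libraries 1 to 5, with a log2 fold change of -0.08 (limma adjusted p = 0.873). The GW3965 libraries of CEPT1 spread over a narrow range that lay within or just below that of DMSO.

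**Figure D4:**
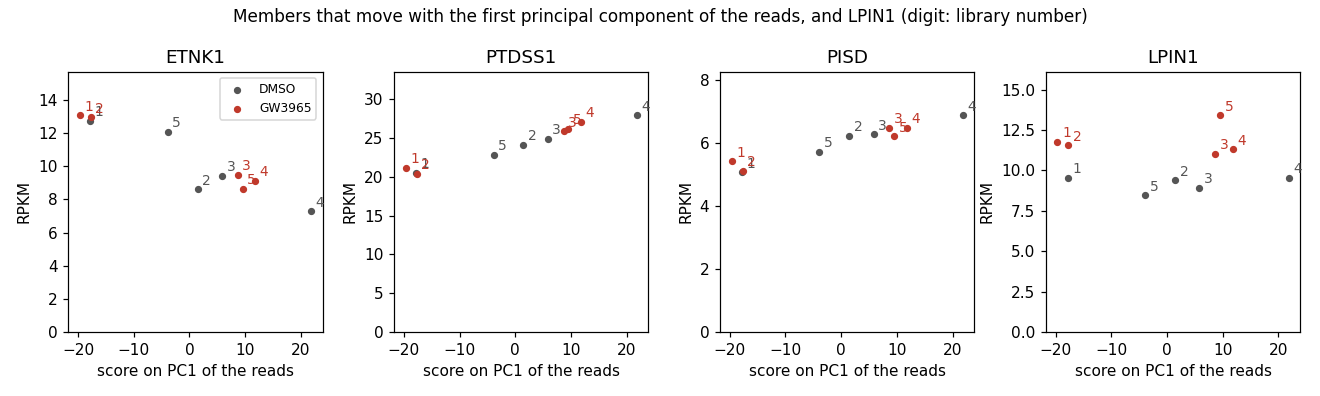
RPKM of ETNK1, PTDSS1, PISD and LPIN1 in each library against the library's score on the first principal component of the recovered reads, with digits as library numbers. ETNK1 is high and PTDSS1 and PISD are low in DMSO 1 and GW3965 1 and 2 at the left, whereas LPIN1 is higher in GW3965 at either end.

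Without the 3 libraries that stood apart, LPIN1 had a log2 fold change of 0.385 (limma adjusted p = 0.198) and PCYT2 of 0.205 (0.442), about the size found with all libraries. ETNK1 then had a log2 fold change of -0.02, so its sign turned, while DMSO 5, also high for ETNK1 at 12.1 RPKM, stayed in. In the same fit, with none past the threshold, the log2 fold change went from 0.13 to 0.24 for AGPAT1, from 0.03 to 0.137 for GPAM, from 0.10 to 0.169 for ABHD5 and from -0.0054 to -0.126 for CDS1. It went from 0.12 to 0.0509 for LPIN3, from -0.09 to -0.0249 for PGS1 and from 0.22 to 0.151 for AGPAT4. With all libraries kept and the first principal component of the values as a covariate, ETNK1 had a log2 fold change of 0.155. Its SE was 0.0582 there (limma adjusted p = 0.309) and 0.173 in the main fit.

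In phosphatidylserine metabolism, PTDSS1, which swaps the choline of phosphatidylcholine for serine, was among the most abundant members and stood at 20.5, 24.1, 24.9, 28.0 and 22.8 RPKM in DMSO libraries 1 to 5 and at 21.2, 20.4, 25.9, 27.1 and 26.2 RPKM in GW3965 libraries 1 to 5. Its lowest values were those of DMSO 1 and GW3965 1 and 2, and its log2 fold change was 0.00092 (95% interval -0.23 to 0.23). PTDSS2, which uses phosphatidylethanolamine instead, went from 9.18 ± 0.747 to 8.95 ± 0.814 RPKM (log2 fold change -0.04). PISD, the mitochondrial decarboxylase that turns phosphatidylserine into phosphatidylethanolamine, stood at 5.07, 6.22, 6.27, 6.87 and 5.71 RPKM in DMSO libraries 1 to 5 and at 5.41, 5.11, 6.47, 6.47 and 6.20 RPKM in GW3965 libraries 1 to 5. It shared the low values of the same 3 libraries, and its log2 fold change was -0.02 (95% interval -0.23 to 0.19). PTDSS1 held 72.3% of the summed level of the 2 synthases in DMSO and 72.8% in GW3965.

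In the choline branch, CHKA, the choline kinase that is often raised in tumours, stood at 8.64, 9.49, 9.06, 9.83 and 8.74 RPKM in DMSO libraries 1 to 5 and at 9.47, 8.68, 9.36, 9.36 and 8.96 RPKM in GW3965 libraries 1 to 5. These values spanned a 1.14-fold range from the lowest to the highest library, and the log2 fold change was 0.0038 (95% interval -0.12 to 0.12). CHKB, with 49 to 80 reads per library, went from 0.569 ± 0.0598 to 0.607 ± 0.134 RPKM (log2 fold change 0.06, 95% interval -0.33 to 0.45). PCYT1A, which encodes the rate-limiting CTP-dependent enzyme of phosphatidylcholine synthesis, stood at 8.78, 7.95, 8.37, 10.1 and 8.49 RPKM in DMSO libraries 1 to 5 and at 9.43, 9.08, 9.05, 9.15 and 9.36 RPKM in GW3965 libraries 1 to 5. All 5 GW3965 values lay within the DMSO range, and the log2 fold change was 0.08 (95% interval -0.06 to 0.22, limma adjusted p = 0.879). Its paralogue PCYT1B had 0 to 7 reads in a library, 12 over the DMSO and 10 over the GW3965 libraries. CHPT1, the cholinephosphotransferase of the last step, stood at 3.64, 4.65, 4.47, 4.37 and 3.84 RPKM in DMSO libraries 1 to 5 and at 4.04, 4.03, 4.23, 4.25 and 4.54 RPKM in GW3965 libraries 1 to 5, with a log2 fold change of 0.01 (95% interval -0.16 to 0.18). All 4 tested genes of the branch had positive fold changes of at most 0.08, and those of CHKA and CHPT1 turned negative with quantile normalization. CHKA held 94.1% of the choline kinase level in DMSO and 93.8% in GW3965, and PCYT1A 99.9% of that of its pair in both conditions.

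The first acylation, of glycerol 3-phosphate, is carried out by the mitochondrial enzymes of GPAM and GPAT2 and the microsomal ones of GPAT3 and GPAT4. GPAT4 was the most abundant and stood at 6.30, 6.09, 5.83, 6.92 and 6.06 RPKM in DMSO libraries 1 to 5 and at 5.70, 5.55, 6.23, 6.36 and 6.10 RPKM in GW3965 libraries 1 to 5. With GW3965, 2 libraries lay below all DMSO libraries, and the log2 fold change was -0.06 (95% interval -0.20 to 0.08, limma adjusted p = 0.93). GPAM, a lipogenic gene regulated by SREBP1c in liver, went from 2.34 ± 0.291 to 2.38 ± 0.204 RPKM, with values between 1.90 and 2.67 over all libraries and a log2 fold change of 0.03 (95% interval -0.19 to 0.24). GPAT3 went from 1.69 ± 0.219 to 1.63 ± 0.186 RPKM (log2 fold change -0.05). GPAT2 had 18 to 34 reads per library, 0.109 ± 0.0238 to 0.130 ± 0.0320 RPKM, and was not tested. GPAT4 held 60.1% of the summed level of the 4 in DMSO and 59.1% in GW3965, and GPAM 22.5% and 23.5%.

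Lysophosphatidic acid acyltransferases then make phosphatidic acid. AGPAT2, mutated in a congenital lipodystrophy, was the most abundant and stood at 21.7, 25.0, 27.7, 26.7 and 25.2 RPKM in DMSO libraries 1 to 5 and at 23.3, 23.5, 27.0, 26.7 and 27.3 RPKM in GW3965 libraries 1 to 5. The groups overlapped fully, with a log2 fold change of 0.02 (95% interval -0.15 to 0.19). AGPAT4 was the least abundant of the family and went from 0.987 ± 0.0725 to 1.17 ± 0.140 RPKM, with 3 GW3965 libraries above all DMSO libraries. Its log2 fold change of 0.22 was the next highest after that of LPIN1 (95% interval -0.01 to 0.46, limma adjusted p = 0.733). The highest AGPAT4 values were those of GW3965 1 and 2 (1.28 and 1.36 RPKM), and the highest of DMSO was that of DMSO 1 (1.10), the same 3 libraries that stood apart. AGPAT1 went from 10.7 ± 1.19 to 11.7 ± 1.15 RPKM (log2 fold change 0.13, 95% interval -0.07 to 0.33), AGPAT3 from 10.9 ± 0.766 to 10.6 ± 0.594 RPKM (-0.04) and AGPAT5 from 2.39 ± 0.182 to 2.29 ± 0.0952 RPKM (-0.05). Summed over the 5 genes the level was 50.2 ± 3.09 RPKM in DMSO and 51.3 ± 3.59 in GW3965. AGPAT2 held 50.3% of it in DMSO and 49.8% in GW3965, and AGPAT4 1.98% and 2.31%.

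DGAT1, which acylates diacylglycerol to triglyceride, stood at 13.9, 15.4, 15.9, 15.7 and 15.3 RPKM in DMSO libraries 1 to 5 and at 15.3, 15.3, 15.3, 14.4 and 15.3 RPKM in GW3965 libraries 1 to 5. Like CHKA it varied over a 1.14-fold range, and its log2 fold change was -0.01 (95% interval -0.12 to 0.10). DGAT2, the unrelated enzyme of the same step, went from 1.10 ± 0.158 to 1.11 ± 0.188 RPKM (log2 fold change 0.01, 95% interval -0.29 to 0.32), and DGAT1 held 93.3% of the summed level in DMSO and 93.1% in GW3965. The monoacylglycerol acyltransferases, which make diacylglycerol from monoacylglycerol, were nearly without reads, with 1 read of MOGAT1 in GW3965 and 1 of MOGAT2 in DMSO over all 10 libraries.

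Of the lipolytic genes, PNPLA2, which encodes the first triglyceride lipase, was the most abundant and stood at 20.3, 17.8, 18.4, 21.3 and 21.3 RPKM in DMSO libraries 1 to 5 and at 20.3, 20.4, 19.96, 20.9 and 18.8 RPKM in GW3965 libraries 1 to 5. Its log2 fold change was 0.02 (95% interval -0.12 to 0.16). ABHD5, which encodes its coactivator, went from 3.601 ± 0.359 to 3.88 ± 0.415 RPKM (log2 fold change 0.10, and 0.0459 without GW3965 5). MGLL, the lipase of the last step, went from 14.1 ± 1.30 to 12.9 ± 1.11 RPKM, with 2 GW3965 libraries below all DMSO libraries (log2 fold change -0.13, 95% interval -0.30 to 0.04). LIPE, the hormone-sensitive lipase, had the lowest fold change of all members, -0.27, on 84 to 164 reads per library. It stood at 0.707, 0.631, 0.851, 0.626 and 0.699 RPKM in DMSO libraries 1 to 5 and at 0.536, 0.795, 0.486, 0.542 and 0.502 RPKM in GW3965 libraries 1 to 5. With GW3965, 4 libraries lay below all DMSO libraries and library 2 was within their range, and the 95% interval ran from -0.64 to 0.11 (limma adjusted p = 0.833). LIPE-AS1, which overlaps LIPE on the opposite strand, had 38 to 70 reads per library and was under the level for testing. It stood at 0.253 to 0.331 RPKM in DMSO and at 0.236, 0.331, 0.243, 0.243 and 0.235 RPKM in GW3965 libraries 1 to 5. Here too 4 GW3965 libraries lay below all DMSO libraries and library 2 did not. Whether LIPE and LIPE-AS1 shared reads was not tested.

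At the entry of the CDP-diacylglycerol branch, CDS2 stood at 12.9, 10.96, 12.5, 14.2 and 10.96 RPKM in DMSO libraries 1 to 5 and at 12.5, 11.7, 12.4, 12.2 and 11.4 RPKM in GW3965 libraries 1 to 5. It held 95.2% of the summed level of the 2 synthases in both conditions and had a log2 fold change of -0.02 (95% interval -0.19 to 0.15), and CDS1 went from 0.612 ± 0.0848 to 0.610 ± 0.0856 RPKM (log2 fold change -0.0054). CDIPT, which makes phosphatidylinositol, stood at 13.7, 12.9, 14.2, 15.5 and 15.2 RPKM in DMSO libraries 1 to 5 and at 12.9, 13.9, 16.2, 15.3 and 12.5 RPKM in GW3965 libraries 1 to 5. In GW3965, 1 library lay above and 2 lay below all DMSO libraries, and the log2 fold change was -0.02. PGS1, the committed step toward cardiolipin, stood at 7.28, 7.20, 7.37, 7.10 and 7.66 RPKM in DMSO libraries 1 to 5 and at 6.33, 6.51, 7.74, 6.49 and 7.43 RPKM in GW3965 libraries 1 to 5. In GW3965, 3 libraries lay below and 1 above all DMSO libraries, with a log2 fold change of -0.09 (95% interval -0.24 to 0.06, limma adjusted p = 0.87). CRLS1, cardiolipin synthase, stood at 0.782, 0.897, 0.911, 1.08 and 1.08 RPKM in DMSO libraries 1 to 5 and at 1.13, 0.671, 0.999, 1.07 and 1.14 RPKM in GW3965 libraries 1 to 5, with a log2 fold change of 0.06 (95% interval -0.28 to 0.40). None of the 5 genes of the branch had a fold change over 0.1 in size.

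Beyond the members, 48 other genes of glycerolipid and phospholipid metabolism were listed, from glycerol 3-phosphate supply, ether lipid synthesis and diacylglycerol kinases to phospholipases and phosphoinositide transfer. Of the 37 that were tested, none passed the threshold, 3 had an unadjusted p under 0.05 (6.99% of all tested genes did), 2 had groups that did not overlap (both higher in GW3965, as in 1.35% of all tested genes), and the median log2 fold change was 0.012. DGKE, a diacylglycerol kinase that turns diacylglycerol back into phosphatidic acid, had the highest fold change, from 3.47 ± 0.397 to 5.02 ± 0.862 RPKM (log2 fold change 0.51, 95% interval 0.25 to 0.77, limma adjusted p = 0.206). The lowest was that of PLA2G6, a calcium-independent phospholipase, from 0.730 ± 0.0785 to 0.580 ± 0.155 RPKM (log2 fold change -0.31, limma adjusted p = 0.814). The other 2 with an unadjusted p under 0.05, named after their values were seen, were DGKA, another diacylglycerol kinase (log2 fold change 0.28, limma adjusted p = 0.327), and GDE1, a glycerophosphodiesterase (0.18, 0.483). The groups of DGKA did not overlap, like those of DGKE. The highest DGKE values were those of GW3965 1 and 2 (5.69 and 6.19 RPKM), and the other GW3965 libraries lay between 4.38 and 4.44. In DMSO the highest was that of DMSO 1 (3.85), so DGKE was highest in the libraries that stood apart on the component of the reads.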

How the data were processed

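Total RNA of PC3 cells was depleted of ribosomal RNA and sequenced in stranded libraries, 5 per condition, which were assigned by the sample titles. The authors aligned single reads with HISAT2 (2.1.0) to hg38, per the submitters' processing notes, although the methods name a mouse genome; all gene identifiers are human. The deposited values are RPKM per annotated gene, computed by the authors, for 62656 genes, of which 15119 were 0 in all libraries. The annotation release is not given in the sources used here. Reads were recovered from the RPKM steps, and 99.997% of the values came out as whole reads (tolerance 1e-09). The factor by which reads were scaled did not follow the recovered reads of a library alone. Relative to DMSO 1 it was 0.815 for DMSO 2, with 39387347 reads, and 0.912 for GW3965 3, with 41638858.

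The members, the lists of other pathway genes and markers, and the tests were chosen with earlier results of these data known. Differences were tested, two-sided, with limma (3.58.1, R 4.3.3; lmFit and eBayes, trend on) on log2(RPKM + 0.1) for the 20402 genes whose mean reached 0.5 RPKM. P-values were adjusted over all of them by the Benjamini-Hochberg method, and the threshold was 0.05. A fold change on this scale understates that of low genes. Values in every library are given for members with an adjusted or unadjusted p under 0.05 or groups that did not overlap, and for the most abundant member of each step; LIPE, with the lowest fold change, was added after its values were seen. Of the other pathway genes, those past the threshold and the highest and lowest fold change are named. Isoenzyme shares were described without a test. The alternatives were other pseudocounts, filters and scalings, voom on the recovered reads, the replicate number as a block, no trend, library weights, a principal component as covariate and the loss of each library; the component of the reads as covariate and the loss of 3 libraries were added after seeing the data. Reads carry no molecular identifiers, so read numbers cover counting error only. Positions of genes are those of GENCODE 29, and promoter sequences those of RefSeq, GRCh38.p14.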

Additional observations from a re-analysis of the deposited data

Results flagged for a closer look

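Among 68 groups of 5 libraries (34 tested members in 2 conditions), 7 held a library whose gap to its nearest neighbour, divided by the range of the group, was over 0.71, where chance gives about 3.4. LPIN2 was lowest in DMSO 5 at 14.2 RPKM, apart from 16.1 to 16.6 in the other libraries of that condition, with a ratio of 0.786. DGAT1 was lowest in DMSO 1 at 13.9 RPKM, apart from 15.3 to 15.9 in the other libraries of that condition, with a ratio of 0.721. DGAT1 was lowest in GW3965 4 at 14.4 RPKM, apart from 15.27 to 15.32 in the other libraries of that condition, with a ratio of 0.945. LIPE was highest in GW3965 2 at 0.795 RPKM, apart from 0.486 to 0.542 in the other libraries of that condition, with a ratio of 0.786. CEPT1 was lowest in GW3965 4 at 2.49 RPKM, apart from 2.57 to 2.60 in the other libraries of that condition, with a ratio of 0.753. PEMT was lowest in GW3965 1 at 5.57 RPKM, apart from 6.75 to 7.22 in the other libraries of that condition, with a ratio of 0.739. CRLS1 was lowest in GW3965 2 at 0.671 RPKM, apart from 0.999 to 1.14 in the other libraries of that condition, with a ratio of 0.748. Of these genes, LIPE (84 to 164 reads per library) and CRLS1 (144 to 220) had the fewest reads.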

How the results depend on the processing

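In the main fit 32 genes were called, 30 higher and 2 lower. The count was 16 with the replicate number as a block (replicate block), 20 without the trend, 21 without the filter, 56 with library weights, 83 with the first principal component of the values as a covariate, 63 with voom on the recovered reads, 146 with the component of the reads as a covariate and 18 without the 3 libraries that stood apart. Leaving out 1 library gave between 17 and 38, and the count fell most without GW3965 2 or GW3965 4 (17 each), DMSO 3 (18) and GW3965 3 (19). The cause was not tested. Of the members, 0 were called in the main fit and 1, LPIN1, with voom, with the component of the values and with that of the reads as a covariate, and 0 whichever library was left out. Replicate numbers did not pair the libraries: deviations of same-numbered libraries correlated between -0.138 and 0.160, and with the replicate block LPIN1 had an adjusted p of 0.24. A sign change occurred for 19 of the 34 members, none with a log2 fold change over 0.0938 in size in the main fit. With quantile normalization, the log2 fold change was -0.015 for CHKA, -0.0036 for CHPT1, -0.025 for PTDSS1, 0.035 for CDS1, -0.0052 for AGPAT2 and -0.0053 for PNPLA2. With library weights, the log2 fold change was -0.032 for CHKB, 0.034 for CDS2, 0.043 for CDIPT, 0.0299 for GPAT3, 0.0044 for AGPAT3, 0.015 for PTDSS2 and 0.023 for PISD. With the first principal component of the values as a covariate, the log2 fold change was -0.0034 for CHKA, -0.0032 for CHPT1, -0.034 for PTDSS1, 0.012 for CDS1 and -0.0012 for AGPAT2. With that of the reads as a covariate, the log2 fold change was 0.0081 for PISD. Without the 3 libraries that stood apart, the log2 fold change was -0.037 for CHKB, 0.014 for CDIPT, -0.0064 for CHKA, 0.028 for GPAT3, -0.0202 for ETNK1, 0.0043 for GPAT4, 0.0048 for PTDSS2 and 0.028 for PISD. Leaving out 1 library in turn, the log2 fold change ran from -0.064 to 0.076 for DGAT2, -0.00053 to 0.18 for CRLS1, -0.016 to 0.0298 for CHKA, -0.035 to 0.051 for CHPT1, -0.055 to 0.0596 for PTDSS1, -0.034 to 0.054 for AGPAT2, -0.047 to 0.062 for CDS1, -0.015 to 0.05 for PNPLA2, -0.044 to 0.068 for GPAM, -0.044 to 0.0064 for DGAT1, -0.061 to 0.031 for CDS2, -0.0695 to 0.024 for CDIPT, -0.11 to 0.019 for GPAT3, -0.013 to 0.19 for ETNK1, -0.082 to 0.029 for PISD, -0.036 to 0.14 for CHKB and -0.081 to 0.00097 for PTDSS2. The remaining 15 members kept their sign in every alternative run on them, 22 for each except LIPE, which had 21 because its mean was under 1 RPKM. Among these, leaving out 1 library moved the log2 fold change by over 1.5 times for ABHD5 (0.0459 without GW3965 5), LPIN2 (0.0404 without DMSO 5), CEPT1 (-0.0453 without DMSO 1), AGPAT1 (0.0838 without DMSO 2), PEMT (-0.106 without DMSO 1 to -0.00198 without GW3965 1), AGPAT5 (-0.0824 without DMSO 5 to -0.0145 without DMSO 2) and PCYT1A (0.0482 without DMSO 2 to 0.133 without DMSO 4). The 95% intervals were widest for CHKB (-0.33 to 0.45), ETNK1 (-0.29 to 0.48), LIPE (-0.64 to 0.11) and CDS1 (-0.36 to 0.35). CHKB, LIPE and CDS1 had at most 164 reads in a library and ETNK1 at least 3686.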
